A study of Mus musculus with 4 samples.

Results

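The genes described here are the integrin chains, the laminin chains and the main partners of the basement membrane, namely the nidogens, perlecan, fibronectin and vitronectin. They were chosen by symbol, as a list of 38 genes. Of these, 36 were matched by RefSeq accession to at least 1 probe of the array, among 20660 genes matched in all, and 28 were bright enough to be tested, among 13433 genes tested.

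The starting cells were mouse EB5 embryonic stem cells into which a Hoxb6 reporter making red fluorescent protein (RFP) had been introduced. They were left to differentiate for 6 days over OP9 feeder cells, which are bone marrow stromal cells of the mouse, and were then sorted. All cells compared stained for Flk-1, the product of Kdr and a receptor for VEGF found on early mesoderm. They were split into an RFP-positive fraction, in which the reporter was on, and an RFP-negative fraction, and 2 one-colour (Cy3) arrays were run for each. The labels do not say whether the 2 arrays of a fraction came from separate cultures, so the p-values measure the spread between these samples only, which may be technical.

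Integrins are receptors made of 1 alpha and 1 beta chain that hold cells to the matrix and signal in both directions across the membrane. Laminins are trimers of an alpha, a beta and a gamma chain that polymerise on the cell surface, and nidogens and perlecan link the laminin sheet to type IV collagen to form the basement membrane. In the early embryo, fibronectin and its receptors are needed for mesoderm and vessel formation, and blood cells later carry integrins of their own.

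A level is a log2 processed signal set against the 75th percentile of its array and is written in log2 units. A difference is the RFP-positive mean less the RFP-negative mean. The image software marked 55.2% to 59.3% of the spots of an array, controls aside, as well above background. Over the genes tested, the 2 RFP-positive arrays correlated at 0.964 (Pearson's r, across genes, which are not independent replicates) and the 2 RFP-negative arrays at 0.980. RFP-positive replicate 1 was nearer to the RFP-negative arrays, at 0.983 and 0.974, than to its own replicate, and RFP-positive replicate 2 stood apart, at 0.953 and 0.950. No array gave Hoxb6 a signal well above background, so the reporter sort could not be checked on its own gene. Kdr, the gene of the other sort marker, was bright in both fractions, at 4.41 and 4.36 log2 units in RFP-positive and 4.18 and 4.33 in RFP-negative cells. A further Kdr probe was at 3.83 and 4.44 in RFP-positive and 3.59 and 3.69 in RFP-negative cells. Its difference was 0.50, against 0.13 at the probe used.

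The comparison asked whether RFP-positive and RFP-negative cells differ in the genes by which they make and hold on to matrix. No integrin or basement membrane gene passed the test. With limma and Benjamini-Hochberg adjustment over all genes tested, 0 of 28 reached an adjusted p of 0.05, where 0% of all genes did, and their adjusted p-values ran from 0.745 to 0.984. At an unadjusted limma p under 0.05, 0 of 28 were higher and 0 lower in RFP-positive cells, against 2.77% and 3.72% of all genes tested (6.49% together). Every one of the 28 was well above background on all 4 arrays, as 92.5% of all genes tested were. Both fractions therefore carried measurable signal at the probes used for these 28 genes. Entry to the test had required such signal on both arrays of either fraction.

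The arrays of the fractions were fully separated for 11 of the 28 genes. RFP-positive cells had the higher values for 5 of them, Hspg2, Itga2b, Lamb1, Itga6 and Lama5, against 18.8% of all genes tested, and the lower values for 6, Itgam, Itgb1, Lama3, Itgb5, Itga3 and Itgb4, against 21.6%. In either direction the background was 40.3%, so a share of this size is close to that of the whole array. The split was 5 higher and 4 lower after quantile normalization and 7 higher and 3 lower after scaling to the median. The shares of all genes in these 2 settings are not given here. Scaling to the median moved the median difference of all genes tested from −0.051 to 0.033. Separation in the same direction was found under every scaling and probe rule tried for the 5 higher genes and for 3 of the lower ones, Itga3, Itgb4 and Itgb5, but not for Itgam, Itgb1 or Lama3.

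**Figure D1:**
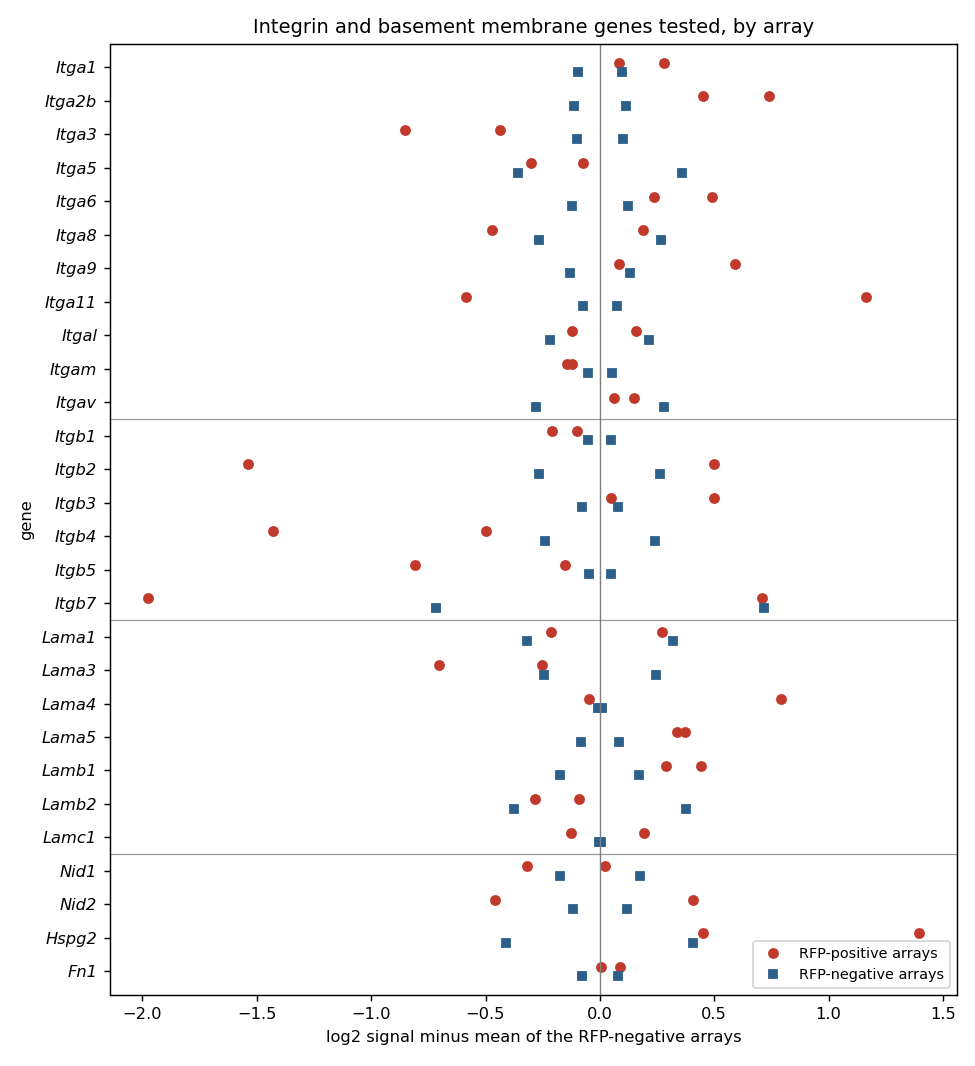
Log2 signal of each of the 28 genes tested on each array, minus the mean of the RFP-negative arrays for that gene (horizontal axis). Circles are the 2 RFP-positive and squares the 2 RFP-negative arrays. Circles lie to the right of both squares for 5 genes and to the left of both for 6, and the widest spread between circles is that of Itgb7.

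For no gene of the list did each RFP-positive array differ 2-fold or more from each RFP-negative one, where 0.469% of all genes tested did so on the higher and 0.893% on the lower side (1.36% together). The difference of the means reached 2-fold for 0 of the 28, against 7.23% of all genes tested, and ran from −0.96 for Itgb4 to 0.92 for Hspg2. The median difference was 0.024 over the 28 genes and −0.051 over all genes tested. The difference exceeded the gap between the arrays of each fraction for 8 genes (28.6%), where 24.7% of all genes did. These 8 were Itga2b, Itga3, Itga6, Itgam, Itgb1, Itgb4, Lama5 and Lamb1.

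**Figure D2:**
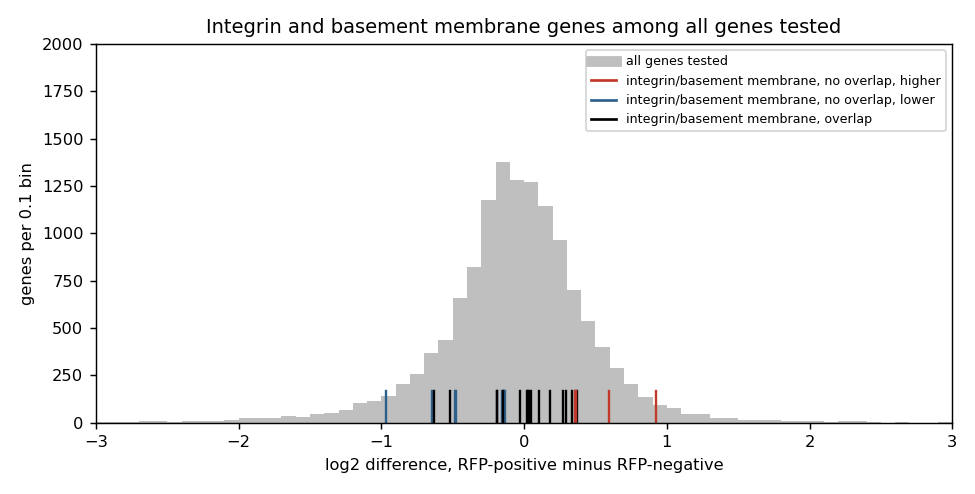
Number of genes per 0.1-wide bin of the log2 difference, RFP-positive minus RFP-negative, over the 13433 genes tested (grey bars), with a short line for each of the 28 integrin and basement membrane genes. Red lines are the 5 genes with higher and blue lines the 6 with lower values in RFP-positive cells without overlap, and all 28 lie between −0.96 and 0.92.

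Promoters are shown for the genes whose order held under every scaling, whose difference exceeded both gaps within a fraction and for which the RefSeq table held a window, namely Itga2b, Lama5 and Lamb1 on the higher and Itga3 on the lower side. Each sequence is the 250 bases before the annotated transcript start in GRCm38.p6, 5′ to 3′ on the gene's strand. They lie at chr11:102469884-102470133 (minus strand) for Itga2b, chr2:180225860-180226109 (minus strand) for Lama5, chr12:31265043-31265292 (plus strand) for Lamb1 and chr11:95076715-95076964 (minus strand, the more upstream of 2 starts) for Itga3. Capitals mark any of 6 motifs, searched on both strands, namely the GC box GGGCGG, the GATA motif AGATAA, the ETS motif CGGAAG, the E-box CAGGTG, the AP-1 motif TGANTCA and the HOX-PBX motif TGATNNAT.
Itga2b: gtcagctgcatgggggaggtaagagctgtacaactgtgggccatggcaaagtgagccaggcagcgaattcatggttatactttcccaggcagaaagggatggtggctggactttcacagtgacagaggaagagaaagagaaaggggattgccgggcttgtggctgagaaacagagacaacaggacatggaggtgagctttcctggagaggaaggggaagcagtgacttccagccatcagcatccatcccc
Lama5: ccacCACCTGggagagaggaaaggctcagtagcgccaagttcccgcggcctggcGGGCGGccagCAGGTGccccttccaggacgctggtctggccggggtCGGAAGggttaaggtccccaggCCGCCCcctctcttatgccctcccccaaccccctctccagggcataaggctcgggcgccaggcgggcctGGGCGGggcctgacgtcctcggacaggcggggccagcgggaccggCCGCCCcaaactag
Lamb1: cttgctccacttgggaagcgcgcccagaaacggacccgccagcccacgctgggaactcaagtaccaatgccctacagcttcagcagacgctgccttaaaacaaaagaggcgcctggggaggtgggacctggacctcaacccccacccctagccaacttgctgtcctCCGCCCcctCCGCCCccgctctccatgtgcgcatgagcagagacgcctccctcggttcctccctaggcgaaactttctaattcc
Itga3: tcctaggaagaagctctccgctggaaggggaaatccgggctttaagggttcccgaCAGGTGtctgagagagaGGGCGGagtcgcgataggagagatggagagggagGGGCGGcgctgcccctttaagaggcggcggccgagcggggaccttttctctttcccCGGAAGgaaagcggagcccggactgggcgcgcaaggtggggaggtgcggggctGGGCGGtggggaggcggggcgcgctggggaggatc
The Itga3 window held 3 GC boxes, 1 ETS motif and 1 E-box, the Lama5 window 4 GC boxes, 1 ETS motif and 2 E-boxes, and the Lamb1 window 2 GC boxes. None of the 6 motifs was in the Itga2b window. Of all 32851 windows of this length, 32.7% held a GC box, 17.2% this E-box, 13.6% this ETS motif, 9.99% the GATA motif, 7.68% the HOX-PBX motif and 6.75% the AP-1 motif. Among the 27 windows of the 25 listed genes that had one, 11 held a GC box, 8 the E-box, 3 the ETS motif, 2 the HOX-PBX motif and 1 each the GATA and AP-1 motifs. These matches are letters in a window, and binding was not measured.

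Of the 17 alpha chains, 11 were tested, and 7 had a difference above 0 and 4 below. Itga2b encodes the alpha IIb chain, which marks the first blood progenitors and megakaryocytes and is the platelet fibrinogen receptor with beta 3. It was at −0.66 and −0.37 log2 units in RFP-positive cells and at −1.22 and −0.995 in RFP-negative cells. Both RFP-positive arrays were above both RFP-negative ones, and the difference was 0.59 (SE 0.25, limma adjusted p 0.745, 95% interval −0.061 to 1.25). Without 1 array it ran from 0.45 to 0.74.

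Itga6, the alpha 6 chain of laminin receptors, was at 3.13 and 3.39 in RFP-positive and 2.78 and 3.02 in RFP-negative cells. The groups were separated by a gap of 0.11 and differed by 0.36 (SE 0.25, limma adjusted p 0.755). Itga3, the alpha 3 chain, binds laminins of epithelia and lies on the lower side. It was at −2.04 and −2.46 in RFP-positive and at −1.70 and −1.50 in RFP-negative cells, without overlap. Its difference of −0.64 (SE 0.27, limma adjusted p 0.745, 95% interval −1.34 to 0.051) was the lowest of the 11 alpha chains tested.

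Itga5 and Itgav, alpha chains of fibronectin and vitronectin receptors, overlapped between the fractions. Itga5, the partner of beta 1 in the main fibronectin receptor, was at −0.56 and −0.78 in RFP-positive and −0.13 and −0.84 in RFP-negative cells. Itgav, the alpha V chain of several receptors for vitronectin and fibronectin, was at 0.21 and 0.12 in RFP-positive and −0.22 and 0.34 in RFP-negative cells. For both, the RFP-positive values fell inside the range of the RFP-negative ones, and the 95% intervals of the difference were −1.04 to 0.67 for Itga5 and −0.64 to 0.86 for Itgav. Itga1 (a collagen receptor chain), Itga8 (which binds nephronectin), Itga9 (which binds tenascin and other ligands), Itga11 (a collagen receptor chain) and Itgal (a leukocyte chain) overlapped too, with differences from −0.14 to 0.34. Itga11 rested on 1 array, at −3.53 and −1.79 in RFP-positive and −2.88 and −3.03 in RFP-negative cells, and its sign turned to −0.58 without RFP-positive replicate 2.

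All 8 beta chains had a probe, and of the 6 tested 5 had a difference below 0, as 54.8% of all genes tested had. Itgb1 pairs with most alpha chains and is the common beta chain of matrix receptors. It was at 3.92 and 4.03 in RFP-positive and 4.08 and 4.18 in RFP-negative cells, a separation of only 0.049 and a difference of −0.15 (SE 0.23, limma adjusted p 0.851, 95% interval −0.74 to 0.44). Its order held neither under quantile normalization nor under scaling to the median or normexp.

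Itgb4 joins only alpha 6 and anchors epithelial cells to laminin at hemidesmosomes. It was at −0.14 and −1.07 in RFP-positive and 0.12 and 0.60 in RFP-negative cells. The groups did not overlap, and RFP-positive replicate 2 was the lowest array. The difference of −0.96 (SE 0.40, limma adjusted p 0.745, 95% interval −2.02 to 0.091) was the lowest of the 28 genes, and without RFP-positive replicate 2 it was −0.50. Itgb5, which pairs with alpha V, was at 0.41 and −0.25 in RFP-positive and 0.51 and 0.61 in RFP-negative cells. It was lower without overlap, by −0.48 (SE 0.31, limma adjusted p 0.75), and by −0.15 without RFP-positive replicate 2.

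Itgb3 pairs with alpha V in vessels and with alpha IIb in platelets. It was at 2.14 and 1.69 in RFP-positive and 1.57 and 1.72 in RFP-negative cells, with overlap. The leukocyte chains Itgb2 and Itgb7 had the widest spread within a fraction. Itgb2 was at −0.90 and −2.94 in RFP-positive and −1.14 and −1.67 in RFP-negative cells, and Itgb7 at −0.73 and −3.41 in RFP-positive and −0.72 and −2.15 in RFP-negative cells. For both genes RFP-positive replicate 2 was the lowest array, and without it the differences turned to 0.50 and 0.71.

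**Figure D3:**
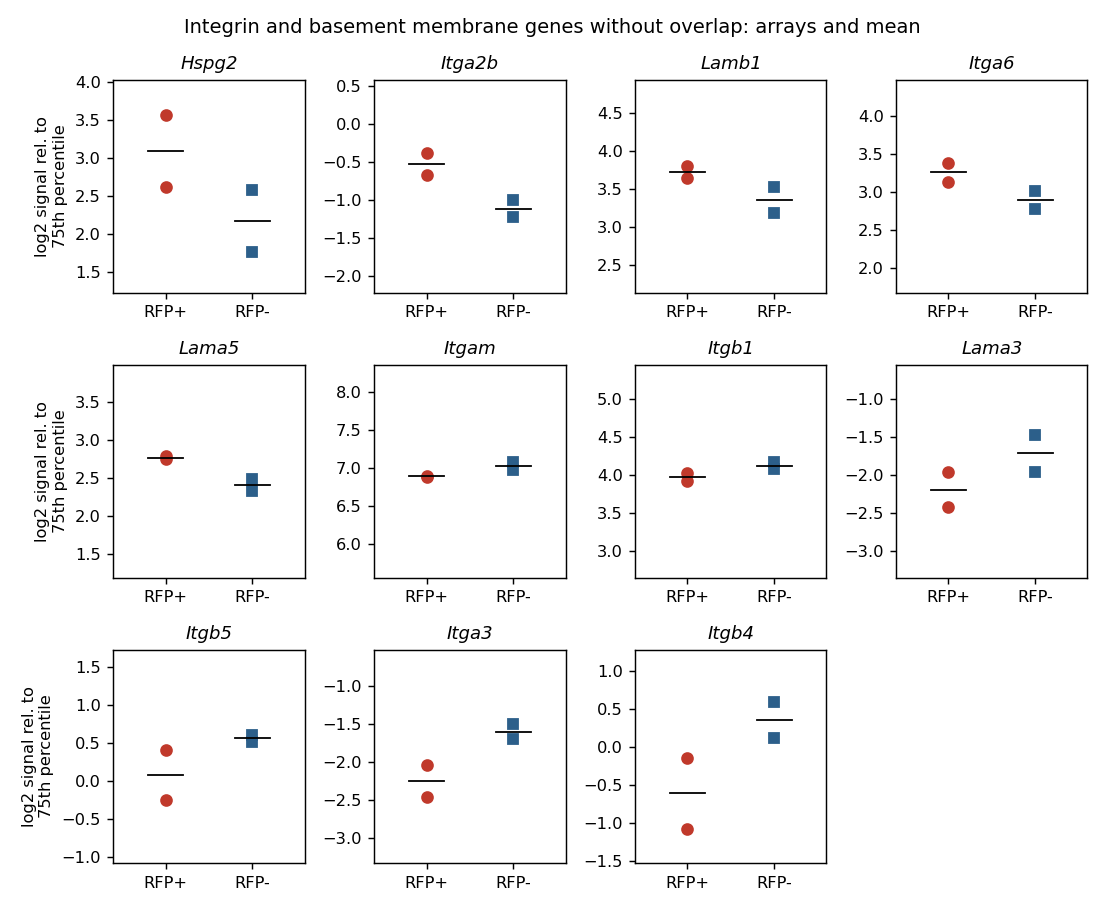
Log2 signal relative to the array's 75th percentile for the 11 genes tested whose fractions did not overlap, with RFP-positive arrays (circles) left and RFP-negative arrays (squares) right and a bar at each mean. Every panel spans the same range of log2 units, and the separation is widest for Itga3 and Itga2b and narrowest for Lama3.

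Of the laminin chains, all 8 had a probe, 7 were tested and 5 had a difference above 0. Lama5, the alpha chain of the laminin that is widespread in embryonic and vascular basement membranes, was at 2.78 and 2.74 in RFP-positive and 2.32 and 2.49 in RFP-negative cells. Its arrays agreed closely within each fraction, and the difference was 0.36 (SE 0.23, limma adjusted p 0.75, 95% interval −0.24 to 0.95). Lamb1, the beta chain of the first laminins of the embryo, was at 3.65 and 3.8 in RFP-positive and 3.53 and 3.19 in RFP-negative cells. It was higher without overlap, by 0.37 (SE 0.25, limma adjusted p 0.755), and by 0.19 without RFP-negative replicate 2.

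Lamc1 encodes the gamma chain that most laminins share. It was at 3.25 and 2.93 in RFP-positive and 3.05 and 3.06 in RFP-negative cells, so that the RFP-negative values lay between the RFP-positive ones, and the difference was 0.034 (95% interval −0.60 to 0.67). The chain of early epithelial basement membranes, Lama1, was at 0.22 and 0.70 in RFP-positive and 0.75 and 0.11 in RFP-negative cells, again with overlap. Lama4, an alpha chain of endothelial and other mesenchymal basement membranes, was at 1.25 and 2.09 in RFP-positive and 1.31 and 1.29 in RFP-negative cells. Only RFP-positive replicate 2 was above the other 3 arrays, and the difference of 0.37 (SE 0.35) turned to −0.047 without it.

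Lama3, the alpha chain of the laminin that Itga3 and Itgb4 receptors bind in skin, was at −1.96 and −2.41 in RFP-positive and −1.95 and −1.46 in RFP-negative cells. The groups were apart by a gap of 0.008 only, with a difference of −0.48 (SE 0.31, limma adjusted p 0.751), which was −0.25 without RFP-positive replicate 2 and −0.23 without RFP-negative replicate 2. Lamb2, a beta chain of neuromuscular and kidney basement membranes, was at −1.52 and −1.33 in RFP-positive and −0.86 and −1.61 in RFP-negative cells, with overlap.

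Of the 4 linker and glycoprotein genes tested, 1 was separated between the fractions at the probe used. Hspg2, which encodes the heparan sulfate proteoglycan perlecan, was at 2.62 and 3.56 in RFP-positive and 2.58 and 1.76 in RFP-negative cells. The groups were separated by 0.040, and the difference of 0.92 (SE 0.46, limma adjusted p 0.75, 95% interval −0.28 to 2.12) was the highest of the 28. Without RFP-positive replicate 2 or RFP-negative replicate 2 it shrank, to 0.45 at the lowest, and a further Hspg2 probe differed by 0.11.

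Fn1, fibronectin, gave some of the steadiest values. It was at 7.17 and 7.25 in RFP-positive and 7.24 and 7.08 in RFP-negative cells, a difference of 0.047 (SE 0.23, 95% interval −0.55 to 0.64). Nid1, the nidogen that binds the laminin gamma chain, was at 3.32 and 2.98 in RFP-positive and 3.13 and 3.48 in RFP-negative cells, and its relative Nid2 at 1.92 and 1.05 in RFP-positive and 1.39 and 1.63 in RFP-negative cells. Both nidogens overlapped between the fractions.

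Several probes were available for 9 of the genes tested, and 6 of these had at least 2 probes past the filter on dim signal. The sign of the difference was the same at those probes for Itgav, Itgb1, Nid1 and Hspg2 and not for Itgam and Itgb3. A further Itgb1 probe was lower without overlap as well, by −0.38, at 3.42 and 2.75 in RFP-positive and 3.47 and 3.47 in RFP-negative cells. Both further Nid1 probes were lower without overlap, by −0.72 and −0.35, while the probe used overlapped at −0.15. The further Itgb3 probe differed by −0.70 against 0.28 at the probe used.

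Itgam, the alpha chain of a macrophage and granulocyte receptor, had probes that disagreed. The probe used was at 6.91 and 6.88 in RFP-positive and 7.08 and 6.97 in RFP-negative cells. A further probe of the same accession was at −2.29 and −2.32 in RFP-positive and −2.42 and −2.72 in RFP-negative cells, and the remaining one was well above background on none of the arrays. The level of Itgam was therefore not settled by these probes, and its difference of −0.13 at the probe used stood against 0.26 at the further one.

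**Figure D4:**
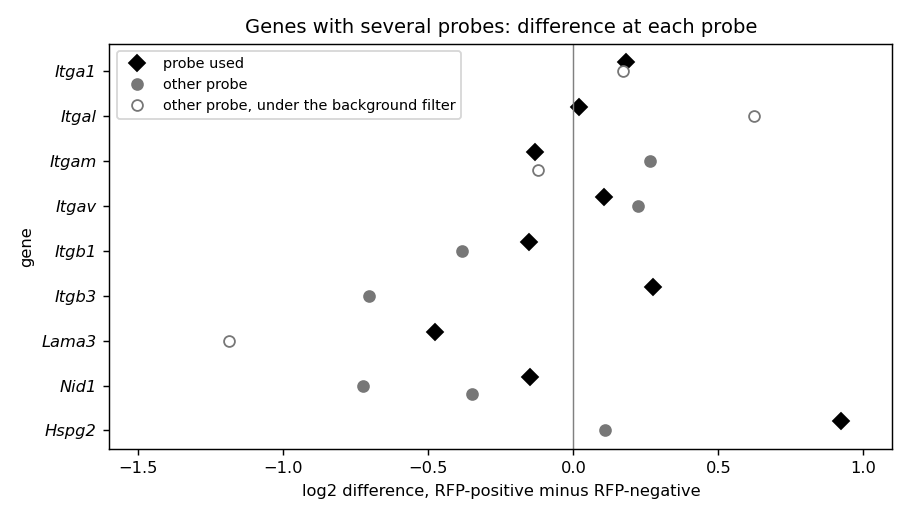
Log2 difference, RFP-positive minus RFP-negative, at every probe of the 9 tested genes with several probes. Diamonds are the probes used, filled circles further probes past the filter and open circles probes under it. For Hspg2 the values are 0.92 and 0.11, and for Itgb3 0.28 and −0.70.

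Of the 8 genes with a probe that were not tested, Itga7, Itgax, Itgb6, Itgb8 and Vtn were well above background on none of the arrays. Vtn, vitronectin, is made mainly by liver, and Itgax marks dendritic cells. Itga4, the partner of beta 1 in binding VCAM-1 and fibronectin and a chain of early blood progenitors, was at −3.89 and −2.84 in RFP-positive and −4.44 and −4.46 in RFP-negative cells and was well above background only on RFP-positive replicate 2. Itga2 was well above background on replicate 2 of each fraction. Lama2, the muscle laminin chain, was so on replicate 1 of each fraction at the probe used and on replicate 2 of each at a further probe. Itga10 and Itgae were not analysed here.

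The wider network was read from lists of other genes, named by smallest p. Of 19 other basement membrane genes tested, 2 were higher and 7 lower without overlap (background 18.8% and 21.6%), with a median difference of −0.062. Smoc1, a matricellular calcium-binding protein, was at −4.22 and −4.74 in RFP-positive and −2.67 and −2.43 in RFP-negative cells. Neither RFP-positive array had it well above background, and RFP-negative cells exceeded them by at least 3.26-fold (limma adjusted p of 0.519). It passed the filter on dim signal through RFP-negative cells alone, which favours that direction, and 15 of the 19 genes were well above background on all arrays. Npnt, nephronectin, a ligand of Itga8, was at 0.33 and −0.51 in RFP-positive and 0.71 and 1.82 in RFP-negative cells, without overlap. Col4a4 differed by −0.61. Tinagl1, at −4.77 and −3.91 in RFP-positive and −3.27 and −3.72 in RFP-negative cells, was not well above background on RFP-positive replicate 1. It too passed the filter through RFP-negative cells alone, and the size of its difference is not settled.

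Matrix receptors that are not integrins were mostly on the lower side, with 12 of 13 below 0, where 54.8% of all genes tested were, and a median of −0.24. Some of these differences were near 0, the smallest −0.017. Scaling to the median moved the median difference of all genes tested from −0.051 to 0.033, and the count under that scaling is not given here. Without overlap, 0 were higher and 5 lower, against 18.8% and 21.6% of all genes tested. Bcam, a laminin alpha 5 receptor, was at −3.68 and −3.92 in RFP-positive and −3.15 and −2.48 in RFP-negative cells. The collagen receptors Ddr1 and Ddr2 differed by −0.58 and −1.01, and Cd151, a partner of laminin-binding integrins, by −0.42, each without overlap (limma adjusted p 0.745 to 0.75 for these 4 genes).

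Among 18 other integrin ligands tested, 5 were higher and 3 lower without overlap, against 18.8% and 21.6% of all genes tested, with a median of 0.077. Spp1, osteopontin, was at −1.36 and −2.27 in RFP-positive and −0.42 and 0.72 in RFP-negative cells, and Vcam1, the ligand of alpha 4 beta 1, at −2.41 and −3.47 in RFP-positive and −1.38 and −1.50 in RFP-negative cells. Both were lower without overlap. Edil3, an endothelial ligand of alpha V receptors, was higher, at −1.36 and −0.64 in RFP-positive and −2.09 and −2.23 in RFP-negative cells. Tnc, tenascin C, was higher by 0.74 without overlap. The limma adjusted p-values of these 4 ran from 0.704 to 0.745.

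Of 24 integrin adaptor and focal adhesion genes tested, 12 lay on each side of 0, with 4 higher and 8 lower without overlap (18.8% and 21.6% of all genes tested) and a median of −0.0050. Pxn, the adaptor paxillin, was at −0.042 and −1.19 in RFP-positive and 0.52 and 0.56 in RFP-negative cells. Ptk2b, a kinase related to focal adhesion kinase, differed by −0.66, Parva by −0.67 and Tln2, a talin, by 0.60, each without overlap (limma adjusted p 0.745 each).

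**Figure D5:**
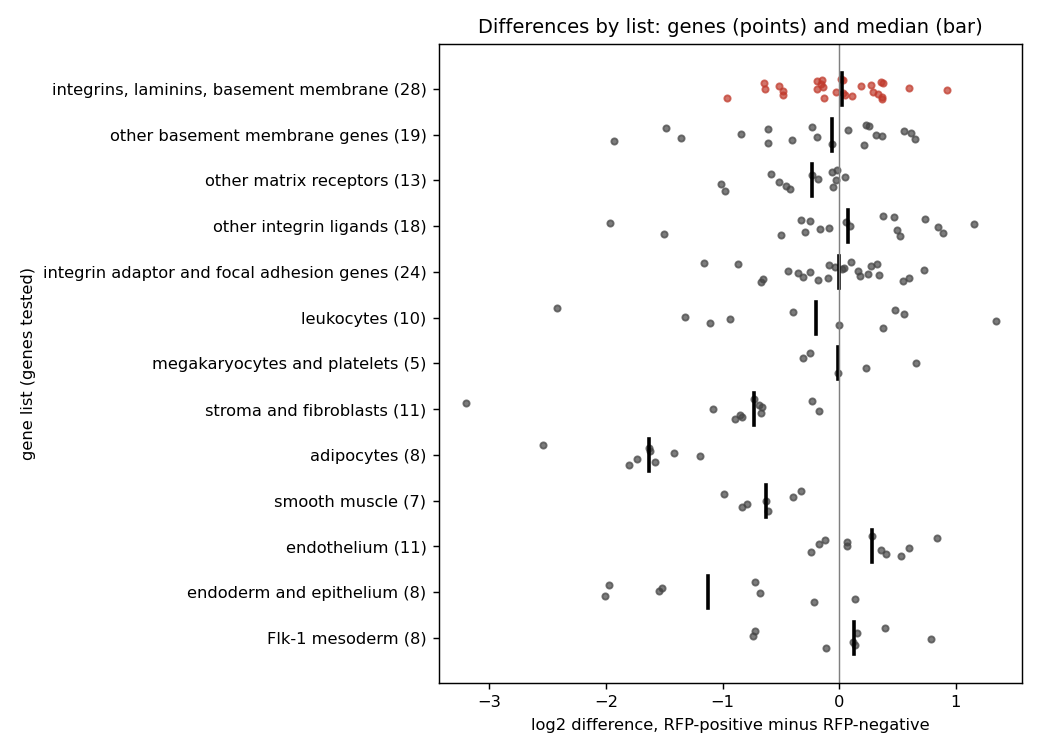
Log2 difference, RFP-positive minus RFP-negative, of each gene tested (points) in the integrin and basement membrane list, 4 related lists and 8 lists of cell type markers, with a bar at each median and the number of genes tested in brackets. The median is 0.024 for the integrin and basement membrane genes, −1.63 for adipocyte, −1.12 for endoderm and epithelium and −0.73 for stromal markers.

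Markers of other cells differed beside these genes, and in bulk samples fewer cells of a type and less RNA per cell cannot be told apart. Of 8 endoderm and epithelium markers tested, 5 were lower without overlap, against 21.6% of all genes tested, with a median of −1.12. The log2 of their summed signal was 4.43 and 3.98 in RFP-positive and 4.73 and 5.63 in RFP-negative cells. Rbp4, Spink1, Epcam and Cldn6 differed by −2.01, −1.97, −1.55 and −1.52, while Afp, Apoa1 and Hnf4a were well above background on none of the arrays. Of the 8 tested, 3 overlapped between the fractions, and 1 had a difference above 0, of 0.14. The lower markers shared their direction between the fractions with Itga3, Itgb4 and Lama3, as with any gene lower in RFP-positive cells. From replicate 1 to replicate 2, the summed signal and these 3 genes fell in RFP-positive and rose in RFP-negative cells. A part of these markers in the values of the 3 genes was not tested. All 8 adipocyte markers were lower without overlap (background 21.6%, median −1.63), with summed signals of 4.34 and 3.88 in RFP-positive and 5.60 and 5.87 in RFP-negative cells. Cidec, Cfd, Pparg and Fabp4 differed by −2.54, −1.81, −1.41 and −1.58.

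Of 11 stromal and fibroblast markers tested, 9 were lower without overlap (background 21.6%, median −0.73), with summed signals of 5.94 and 5.63 in RFP-positive and 6.18 and 6.85 in RFP-negative cells. Col1a1, Thy1, Timp1 and Cxcl12 differed by −0.85, −0.89, −1.09 and −0.84, and Dcn was well above background on none of the arrays. Of 7 smooth muscle markers, 5 were lower without overlap (background 21.6%, median −0.62), Acta2 differing by −0.99, Actg2 by −0.84, Cnn1 by −0.62 and Myl9 by −0.79. Their summed signals were 4.48 and 4.40 in RFP-positive and 4.86 and 5.49 in RFP-negative cells. Both lists shared their direction between the fractions with Itgb5 and Vcam1, as with any gene lower in RFP-positive cells. Between RFP-negative replicates 1 and 2 the summed signals rose, as did Itgb5, from 0.51 to 0.61, while Vcam1 went from −1.38 to −1.50. Between RFP-positive replicates 1 and 2 the summed signals fell, as did Itgb5, from 0.41 to −0.25, and Vcam1, from −2.41 to −3.47. A part of these markers in the values of Itgb5 and Vcam1 was not tested.

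Of 11 endothelial markers, 5 were higher and 0 lower without overlap (background 18.8% and 21.6%, median 0.29). Their summed signals were 6.49 and 6.67 in RFP-positive and 6.38 and 6.28 in RFP-negative cells. Flt1, Cldn5, Tek and Cdh5 differed by 0.84, 0.60, 0.40 and 0.53, while 3 of the 11 had differences below 0, down to −0.24. The higher ones shared their direction between the fractions with Hspg2, Lama5 and Itga6. Within the fractions, Lama5 and Itga6 were lowest on RFP-negative replicate 1. Hspg2 was lowest on RFP-negative replicate 2, at 1.76, as were Flt1, Cldn5, Tek and Cdh5. A part of these markers in the values of Hspg2, Lama5 and Itga6 was not tested. Flk-1 mesoderm markers (8 tested) had a median of 0.13, with 4 higher and 1 lower without overlap (background 18.8% and 21.6%). Their summed signals were 6.44 and 6.11 in RFP-positive and 6.32 and 6.28 in RFP-negative cells. Pdgfra, Mesp1, Tal1 and Etv2 differed by 0.79, −0.74, 0.39 and −0.72.

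Leukocyte markers (10 tested) had a median of −0.20, with 1 higher and 4 lower without overlap (background 18.8% and 21.6%). Their summed signals were 5.09 and 5.21 in RFP-positive and 4.93 and 5.05 in RFP-negative cells. Lyz2 was dim on all arrays. Coro1a was well above background on neither RFP-positive array, and RFP-negative cells exceeded them by at least 1.71-fold. Cd53, dim on RFP-positive replicate 1, differed by −1.33, Spi1 by −1.11 and Aif1 by −2.42. Coro1a, Cd53, Aif1 and Fcer1g passed the filter on dim signal through RFP-negative cells alone, which favours lower values in RFP-positive cells. Laptm5 passed it through RFP-positive cells alone. The other way, 4 of the 10 had differences above 0, of up to 1.34 for Fcer1g, and 5 of the 10 were well above background on all arrays. Aif1, like Itgb2 and Itgb7, was lowest on RFP-positive replicate 2, at −6.81 and not well above background there. Ptprc, Spi1 and Csf1r were lowest on that array too. Fcer1g and Lcp1 were highest on it, at −0.74 and 4.17, as was the summed signal of the list. Of the megakaryocyte and platelet markers, 5 were tested, with 1 higher and 3 lower without overlap (background 18.8% and 21.6%) and a median of −0.011. Their summed signals were 3.19 and 3.10 in RFP-positive and 3.15 and 3.16 in RFP-negative cells. Gp1ba was higher by 0.66 without overlap, Treml1 and Gp1bb differed by −0.31 and −0.25, and Gp5, Gp6 and Gp9 were well above background on none of the arrays. Itga2b, which these cells carry, differed by 0.59 beside that median.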

How the data were processed

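RNA of the sorted cells was labelled with a low-input amplification kit, per the labels' protocols, and each of 4 one-colour arrays was assigned to a fraction by its label. Per the file headers, Agilent's Feature Extraction software (10.10.1.1) made the deposited intensity values, which are processed signals. The deposited value table holds the same signals multiplied by 1 constant per array, 5.82 and 5.39 for RFP-positive and 6.45 and 6.02 for RFP-negative replicates 1 and 2 (column medians 133.9, 142.3, 136.2 and 143.9). The origin of these constants, and with it the table's centring, is unknown. The headers give 1 slide and 1 scan for the 4 arrays, which leaves no batch to test.

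Of 62976 spots, 3671 controls were left out, as were 115 to 153 outlier spots per array, and none of the remaining spots was saturated. The log2 signal minus that of the array's 75th percentile was averaged over the spots of a probe. Probes were named through unversioned RefSeq accessions in a GRCm38.p6 gene table, which gave 27235 of 55681 probes 1 symbol, 0 several and 28446 none. The probe with the highest mean stood for a gene, and the test took in genes whose probe was marked well above background on both arrays of a fraction. A bound of the form at least N-fold sets the brighter mean against the dim signal or, where higher, the array's lowest spot marked well above background (−3.98, −4.54, −4.00 and −4.22 log2 units on RFP-positive replicates 1 and 2 and RFP-negative replicates 1 and 2). The number of arrays limits the precision of every value.

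Differences were tested in R 4.3.3 by limma 3.58.1 (lmFit, then eBayes; two-sided, without a block), with Benjamini-Hochberg adjustment over 13433 genes and a threshold of 0.05. There were 2 residual and 2.77 prior degrees of freedom. The 95% intervals are unadjusted. The fit was tested on simulated data. Named are all genes of the list, Hoxb6 and Kdr, and up to 4 genes of smallest p per further list. Some genes that this rule names or the lists hold are not reported here. Further genes named as dim, namely Afp, Apoa1, Hnf4a, Dcn, Lyz2, Gp5, Gp6 and Gp9, were chosen after their values were seen. The same holds for the leukocyte markers Ptprc, Csf1r, Fcer1g, Laptm5 and Lcp1. The genes and lists were chosen with earlier results of these data known. Alternatives were quantile normalization, median scaling, normexp with an offset of 50 on median spot and background signals, the deposited table, 2 other filters, probe means per gene, trend and robust settings of eBayes, a block for the replicate number and each array left out. Python 3.11.15 with pandas 2.3.3 read the promoters, and matplotlib 3.10.9 drew the figures.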

Additional observations from a re-analysis of the deposited data

How the results depend on the processing

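With 2 arrays a fraction, 0 genes passed limma's adjusted p of 0.05 in any setting tried. Between settings, the median difference over the integrin and basement membrane genes was 0.11 after median scaling and −0.057 without a filter, where all 36 genes with a probe entered, while the median of all genes was 0.033 and −0.12, and median scaling left 3 genes of the list lower without overlap. Genes whose RFP-positive arrays each differed 2-fold or more from each RFP-negative one numbered 183 over all genes tested, and 12 with normexp, whose offset pulls low signals together, 335 without a filter and 57 with signal well above background on all 4 arrays. The cause of the other changes was not tested. Signs turned for Itgam (0.037 with quantile normalization, 0.066 with the mean of its probes), Nid2 (0.057 with median scaling, 0.018 with normexp), Itgal (−0.080 with normexp) and Itgb3 (−0.21 with the mean of its probes). The deposited table gave the main values.

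With each array left out in turn, genes with an unadjusted limma p under 0.05, 872 with all arrays, ran from 387 (without RFP-negative replicate 2) to 2754 (without RFP-positive replicate 1), and genes at least 2-fold apart from 383 to 1471. Over the list, 9 to 10 genes were higher and 8 to 12 lower without overlap, since fewer arrays have to be apart, and 0 to 4 were at least 2-fold apart, the 4 being Itga11, Itgb2, Itgb4 and Itgb7 without RFP-positive replicate 1. The share of all genes without overlap is not given for these fits, so the counts are not read as a result about the list. The median ran from −0.021 (without RFP-positive replicate 1) to 0.13 (without RFP-negative replicate 1). Differences that turned sign ran from −0.54 to 0.17 for Itga5, −0.47 to 0.19 for Itga8, −0.58 to 1.17 for Itga11, −0.20 to 0.23 for Itgal, −0.17 to 0.39 for Itgav, −1.54 to 0.50 for Itgb2, −1.97 to 0.71 for Itgb7, −0.29 to 0.35 for Lama1, −0.047 to 0.79 for Lama4, −0.56 to 0.19 for Lamb2, −0.12 to 0.19 for Lamc1, −0.32 to 0.026 for Nid1, −0.46 to 0.41 for Nid2 and −0.032 to 0.13 for Fn1. A lone array is assumed in these fits to vary like the other fraction.

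With the replicate number as a block, 1039 genes had an unadjusted limma p under 0.05 and 0 an adjusted one. Same-numbered arrays deviated together with a correlation of 0.0922 over genes, and with 2 numbers the labels do not show that they pair.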

Other observations

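Chains that join in 1 protein can be set against each other within an array, since a constant per array drops out of the difference of 2 probes. The level of such a difference has no meaning of its own, because the probes differ, but it can be compared between arrays. The alpha 6 chain joins either beta 1 or beta 4. Itga6 minus Itgb4 was 3.27 and 4.46 log2 units in RFP-positive and 2.66 and 2.42 in RFP-negative cells, higher by 1.33 without overlap. Itga6 minus Itgb1 was −0.78 and −0.64 in RFP-positive and −1.30 and −1.16 in RFP-negative cells, higher by 0.52 without overlap. Since Itga6 was higher and Itgb4 and Itgb1 were lower without overlap on their own, both differences had to be separated and add no separate result. Itgb4 minus Itgb1 was −4.06 and −5.10 in RFP-positive and −3.95 and −3.58 in RFP-negative cells, lower by −0.81, again without overlap.

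The other integrin pairs were split. Itga1 and Itga9 against Itgb1 were higher by 0.34 and 0.49 and Itgav against Itgb5 by 0.59, and Itga3 against Itgb1 was lower by −0.49, all without overlap. Itga5 and Itgav against Itgb1, Itgav against Itgb3 and Itga2b against Itgb3 overlapped. Among the laminins, Lama3 minus Lama5, the skin-type against the widespread alpha chain, was −4.74 and −5.16 in RFP-positive and −4.28 and −3.95 in RFP-negative cells, lower by −0.83. This order too was given in advance, as Lama3 was lower and Lama5 higher without overlap on their own. Lama1 minus Lamb1 was lower by −0.34 without overlap, and Lama5 or Lama4 minus Lamb1 and Lamb1 minus Lamc1 overlapped. Nid1 minus Lamc1 was lower by −0.18, with the RFP-negative values of 0.079 and 0.42 above the RFP-positive ones of 0.077 and 0.055. These pairs were chosen after the values of their genes were seen, and none was tested. Several pairs use the same gene, such as Itgb1, and are not separate observations. The share of such pairs without overlap over the whole array is not given, so their orders are not read as a result about the chains.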
